A study of Mus musculus with 23 samples.

Results

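The smooth muscle and enteric nerve markers are 35 genes that mark the muscle and nerve cells of the gut wall below the epithelium. They comprise 19 contractile genes of smooth muscle, the chloride channel gene Ano1 of the pacemaker cells, 12 genes of enteric neurons and 3 genes of enteric glia. They were chosen by cell type, and each was read from 1 probe set. Of the 35 genes 34 were measured among 18820 genes in all, because the only probe set for Tubb3 is annotated to several genes and was not used. The colon was scraped, and proximal and distal scrapings were pooled per mouse. How much of the muscle layers below the mucosa a scraping held was not measured.

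All mice were male, 7 to 9 weeks old at the start, and received a Westernized high fat diet with 40 energy% fat and 30 µmol calcium/g for 14 days. The KO mice were 129S4/SvJae-Pparatm1Gonz/J, which lack a functional PPARα (peroxisome proliferator-activated receptor alpha) in every cell. The WT mice were 129S1/SvImJ, so that the knockout and the 129 substrain cannot be told apart. There were 6 arrays each from KO mice on the diet with 0.5 µmol heme/g (KO heme), KO mice on the diet without heme (KO control) and WT mice with heme (WT heme), and 5 arrays were from WT mice without heme (WT control), because the authors excluded 1 array of insufficient quality. Every array held the RNA of 1 mouse.

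In smooth muscle, actin filaments slide along myosin filaments when calcium activates myosin light chain kinase, and calponin, transgelin, tropomyosins and leiomodin bind and regulate the actin filament. The genes of this apparatus are switched on together by serum response factor and its partner myocardin, which act on a DNA element called the CArG box. The enteric nervous system lies as a plexus between the muscle layers and in the submucosa. Its neurons release acetylcholine and tachykinins, which contract the muscle, and nitric oxide and vasoactive intestinal peptide, which relax it, while interstitial cells of Cajal pace the contractions. Besides the muscle layers, the muscularis mucosae, vessel walls, pericytes and myofibroblasts express contractile genes, so that these genes do not mark the outer muscle alone.

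The start sites of the contractile genes were read because these genes moved together between arrays. In the RefSeq promoter table (GRCm38.p6, 250 bases before to 50 bases after each start site) 15 contractile members had a window, and 1 of them, Myl9, held the strict CArG box, which is CC, then 6 bases that are each A or T, then GG. Of 12 nerve members with a window 1 held the strict box too, Elavl4. Over all genes with a window the strict box was found in 488 of 27025 (1.81%). When 1 of the 6 central bases was allowed to be C or G, 3 of 15 contractile members and 2 of 12 nerve members held such a box, against 11.3% of all genes. The motif is its own reverse complement, so that 1 search covers both strands, and Actg2, Tagln, Myh11 and Myocd had no entry. The windows of Acta2, the smooth muscle α-actin, at chr19:34255324-34255623 on the minus strand, and of Myl9, the regulatory myosin light chain, at chr2:156775214-156775513 on the plus strand, are shown with the boxes in capitals; Myl9 was chosen after its match was seen.
Acta2: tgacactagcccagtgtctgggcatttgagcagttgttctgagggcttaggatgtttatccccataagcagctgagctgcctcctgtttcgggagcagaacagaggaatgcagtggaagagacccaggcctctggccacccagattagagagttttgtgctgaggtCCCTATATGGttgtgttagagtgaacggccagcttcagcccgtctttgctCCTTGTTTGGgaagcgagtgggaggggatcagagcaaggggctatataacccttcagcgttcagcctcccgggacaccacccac
Myl9: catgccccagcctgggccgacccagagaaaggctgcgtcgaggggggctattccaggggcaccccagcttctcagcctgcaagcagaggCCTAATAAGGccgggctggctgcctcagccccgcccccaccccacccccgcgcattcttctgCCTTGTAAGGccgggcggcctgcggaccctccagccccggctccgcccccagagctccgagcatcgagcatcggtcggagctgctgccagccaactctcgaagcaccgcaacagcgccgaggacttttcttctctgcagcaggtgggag
In Acta2 the relaxed boxes CCCTATATGG and CCTTGTTTGG began 84 and 34 bases before the start site. In Myl9 the strict box CCTAATAAGG began 161 bases before the start site and the relaxed box CCTTGTAAGG began 99 bases before it. The Synm window held 1 relaxed box, and the windows of Cnn1 and Des held none.

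The signal given below is 2 to the power of the deposited log2 value. Ppara itself had a signal of 163 to 238 in KO heme arrays and 240.0 to 378 in KO control arrays, against 344 to 475 in WT heme arrays and 444 to 560.2 in WT control arrays. On either diet all KO arrays were lower than all WT arrays, though the sources used here do not give whether the probes lie in the deleted part. Hmox1, the heme oxygenase induced by heme, was at 154 to 1143 in WT heme arrays, against 52.9 to 73.5 in WT control arrays, and at 249 to 730.0 in KO heme arrays, against 53.01 to 84.5 in KO control arrays. Epithelial markers were bright in each group, with a summed signal over 12 genes of 44585 to 47656 in WT heme, 43727 to 46790.0 in WT control, 45585 to 48918 in KO heme and 45579 to 46575 in KO control arrays. Several arrays stood apart in the genes described here. WT control arrays 1 and 2 had the highest contractile signal of the series. WT control array 3 had the lowest summed signal of 10 fibroblast markers, 2694 against 7277 to 9086 in the other WT control arrays, and of 8 endothelial markers, 593 against 1270.3 to 1438 in the other WT control arrays. WT heme array 4 had the lowest Hmox1 signal of its group, 154 against 751 to 1143 in the other WT heme arrays, and without it 12 contractile and 8 nerve members were called lower in WT mice. KO heme array 1 had a Tac1 signal above every other array and the lowest Hmox1 signal of its group, 249 against 365 to 730.0 in the other KO heme arrays. Its summed signal of 4 B cell markers was 1842 against 299 to 737 in the other KO heme arrays, and that of 5 adipocyte markers 241 against 374 to 455, and their part in its values was not tested. KO control array 4 had the lowest contractile signal of the control arrays. The values on heme in WT mice without WT control arrays 1 and 2 are given below for every member called there.

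On the heme diet, 13 of 19 contractile members fell in WT mice and none rose, with a median log2 fold change of -1.04 over the 19 genes. In KO mice 1 of 19 fell, Mylk, with a median of -0.43. A gene was called when its Benjamini-Hochberg adjusted p in the limma fit over all genes was below 0.01 and its mean signal exceeded 20 in at least 1 of the groups compared. By this rule 8.29% of all genes were called lower and 9.60% higher in WT mice, and 9.20% were called lower and 9.23% higher in KO mice, with a median log2 fold change of -0.01 over all genes in each genotype. All 19 contractile members had negative values in both genotypes, between -1.88 and -0.18 in WT mice and between -0.99 and -0.03 in KO mice. In bulk tissue, fewer muscle cells in a scraping, a larger share of epithelial RNA and less RNA per muscle cell cannot be told apart. The paper reported more cells per crypt on heme in both genotypes, and the part of this in the values was not tested.

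**Figure D1:**
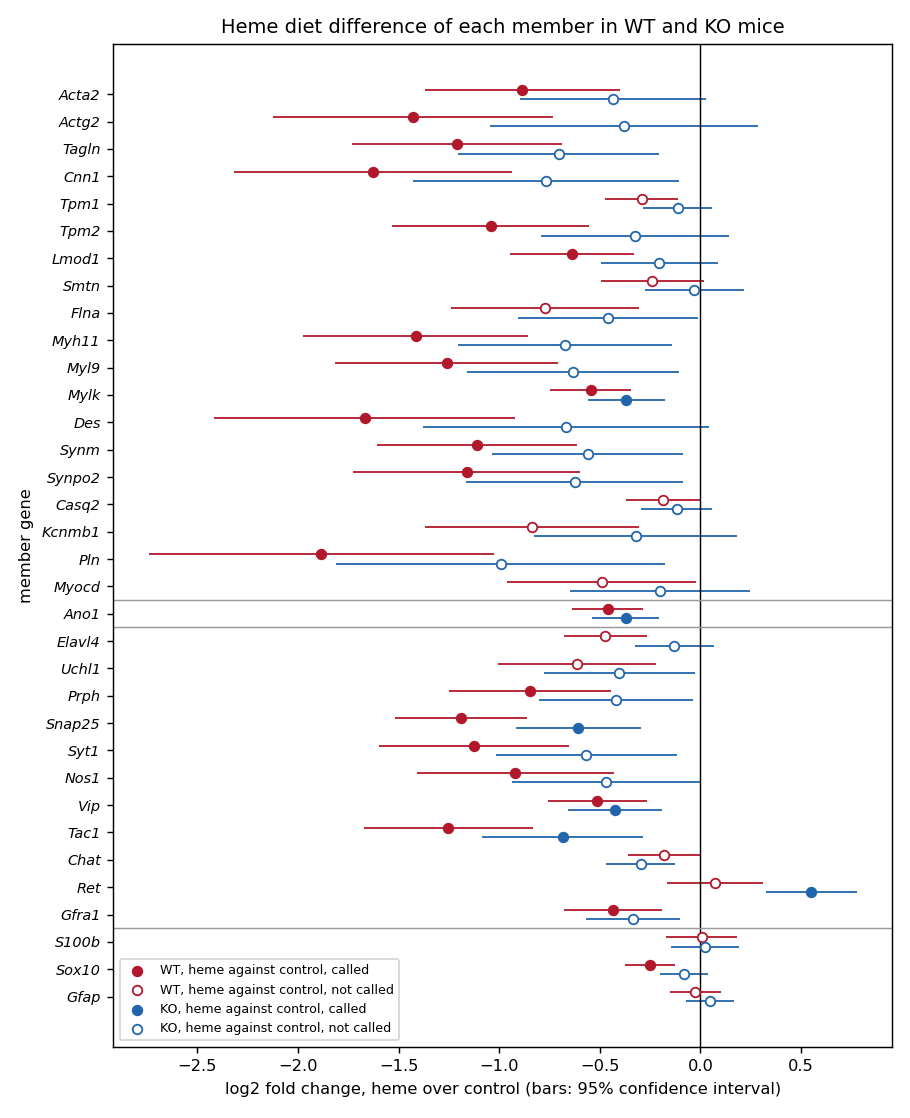
Heme against control diet as a log2 fold change (horizontal axis, points with 95% confidence intervals) for each of the 34 measured members (vertical axis), in WT mice (red) and KO mice (blue), with filled points for called genes. Of 19 contractile members 13 were called lower in WT and 1 in KO mice, and Snap25, Vip and Tac1 were called lower in each genotype.

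Of the genes of the motor and the thin filament, Myh11, the smooth muscle myosin heavy chain, had a lowest, median and highest signal of 287, 337 and 462 in WT heme arrays, against 1361, 1948, 747, 574 and 576 in WT control arrays 1 to 5. In KO mice these values were 262, 353 and 441 in KO heme arrays and 314, 590.1 and 794 in KO control arrays. The WT groups did not overlap and the KO groups did, and the 2 highest values of all 23 belonged to WT control arrays 1 and 2. The log2 fold change of Myh11 on heme was -1.42 ± 0.27 (SE, adjusted p = 0.000386) in WT mice and -0.67 ± 0.26 (adjusted p = 0.0532) in KO mice. Acta2, the actin isoform of vascular and visceral smooth muscle, was at 1178, 1477 and 1898 in WT heme arrays, against 3882, 4394, 2069.6, 2104 and 2209 in WT control arrays 1 to 5. Acta2 in KO mice was at 1085, 1541 and 2144 in KO heme arrays and 1159.7, 2283 and 3142 in KO control arrays. The 5 WT control values again lay above all WT heme values, but arrays 3 to 5 were close to the highest WT heme array (-0.88 ± 0.23, adjusted p = 0.00623 in WT). This call of Acta2 was lost when WT control array 1 or 2, or WT heme array 2, 4, 5 or 6, was left out, with an adjusted p of up to 0.0284.

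Actg2, the actin isoform of gut muscle, was at 258, 344 and 475 in WT heme arrays, against 1671, 1939, 858, 499 and 605 in WT control arrays 1 to 5. For KO mice the Actg2 values were 232, 294 and 489.7 in KO heme arrays and 177, 451 and 658 in KO control arrays. The lowest Actg2 signal of all 23 arrays was that of KO control array 4, and the KO groups overlapped (-0.38 ± 0.32, adjusted p = 0.426). In WT mice Actg2 fell by 1.43 ± 0.34 on the log2 scale (adjusted p = 0.00256), a call that was lost without WT control array 1 or 2 (adjusted p up to 0.0124). Because the α and γ smooth muscle actins are near-identical in their coding sequence, the probe set of each may also detect the other. Cnn1, calponin, which inhibits the myosin motor on actin, was at 238, 323 and 485 in WT heme arrays, against 1741, 2398, 852, 551 and 655 in WT control arrays 1 to 5. Cnn1 in KO mice was at 198, 267 and 434 in KO heme arrays and 232, 506 and 735 in KO control arrays. Cnn1 fell in WT mice (-1.63 ± 0.33, adjusted p = 0.00077) and was not called in KO mice (-0.77 ± 0.32, adjusted p = 0.0758). Tagln, transgelin or SM22α, an actin-bundling protein, was at 245, 356 and 442 in WT heme arrays, against 1088, 1523, 632, 521 and 593 in WT control arrays 1 to 5. Tagln in KO mice was at 254, 321 and 419 in KO heme arrays and 285, 561 and 770.0 in KO control arrays. Tagln fell in WT mice (-1.21 ± 0.25, adjusted p = 0.0009) and was not called in KO mice (-0.70 ± 0.24, adjusted p = 0.0305). Both genes had separate groups in WT mice and overlapping groups in KO mice.

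Of the light chain system, Myl9 was at 416, 556 and 678 in WT heme arrays, against 1902, 2530.2, 968, 847 and 889 in WT control arrays 1 to 5. Myl9 in KO mice was at 375, 575 and 676 in KO heme arrays and 452, 912 and 1303 in KO control arrays. The groups were separate in WT mice only, where Myl9 fell (-1.26 ± 0.27, adjusted p = 0.00104). Mylk, the myosin light chain kinase that starts contraction, was at 228, 243 and 254 in WT heme arrays, against 423, 449, 311, 295 and 306 in WT control arrays 1 to 5. Mylk in KO mice was at 199, 233 and 259 in KO heme arrays and 258, 293 and 344 in KO control arrays, so that the 2 KO groups met at 258 and 259. It was the only contractile member called in both genotypes, with -0.54 ± 0.10, adjusted p = 0.000196 in WT mice and -0.37 ± 0.09, adjusted p = 0.00398 in KO mice, and its KO call was lost without KO control array 2 or KO heme array 5 (adjusted p up to 0.0138). Lmod1, leiomodin, which nucleates actin filaments, was at 46.8, 53.03 and 61.3 in WT heme arrays, against 102, 117, 67.8, 65.99 and 80.2 in WT control arrays 1 to 5. Lmod1 in KO mice was at 36.8, 55.7 and 66.7 in KO heme arrays and 50.9, 62.8 and 75.8 in KO control arrays, with overlap, and fell in WT mice (-0.64 ± 0.15, adjusted p = 0.00228). Tpm2, β-tropomyosin, was at 170.3, 195 and 264 in WT heme arrays, against 609, 864, 343, 249.8 and 302 in WT control arrays 1 to 5. Tpm2 in KO mice was at 166, 207 and 236 in KO heme arrays and 174, 247 and 342 in KO control arrays. The WT groups of Tpm2 overlapped at WT control array 4, and Tpm2 fell in WT mice (-1.04 ± 0.24, adjusted p = 0.00186). Tpm1, α-tropomyosin, which many other cell types also express, and Smtn, smoothelin, were not called in either genotype, at -0.29 and -0.24 on the log2 scale in WT mice. The Lmod1 call in WT mice was lost without WT control array 2 (adjusted p = 0.011).

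Genes of the cytoskeleton that anchors the filaments were highest in the same arrays. Des, desmin, the intermediate filament of muscle, was at 177, 246 and 376 in WT heme arrays, against 1494, 1887, 693, 412 and 472 in WT control arrays 1 to 5. Des in KO mice was at 178, 233 and 351 in KO heme arrays and 156, 359.9 and 619 in KO control arrays. The first and second WT control arrays stood far above the other 3, and Des fell in WT mice (-1.67 ± 0.36, adjusted p = 0.00121) but was not called in KO mice (-0.67 ± 0.34, adjusted p = 0.16). Synm, synemin, a partner of desmin, was at 44.01, 57.8 and 64.98 in WT heme arrays, against 172, 234, 121, 69.7 and 75.6 in WT control arrays 1 to 5. Synm in KO mice was at 47.98, 51.3 and 56.5 in KO heme arrays and 46.8, 74.4 and 119 in KO control arrays. Synpo2, synaptopodin 2 or myopodin, an actin-binding protein of the dense bodies, was at 66.4, 74.8 and 83.3 in WT heme arrays, against 245, 396, 145, 93.7 and 97.2 in WT control arrays 1 to 5. Synpo2 in KO mice was at 53.5, 64.5 and 81.1 in KO heme arrays and 62.6, 103 and 156 in KO control arrays. Both fell in WT mice, without overlap of the WT groups (-1.11 and -1.16), and the Synpo2 call was lost without WT control array 1 (adjusted p = 0.0109). Flna, filamin A, which fibroblasts and endothelial cells express as well, was not called (-0.77 ± 0.23, adjusted p = 0.0124 in WT).

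Among genes of calcium handling, Pln, phospholamban, which restrains the calcium pump of the sarcoplasmic reticulum, was at 21.9, 25.5 and 28.8 in WT heme arrays, against 258, 311, 62.7, 43.5 and 33.5 in WT control arrays 1 to 5. Pln in KO mice was at 19.2, 23.5 and 29.8 in KO heme arrays and 29.8, 44.2 and 87.3 in KO control arrays. The values of WT control arrays 1 and 2 stood far above the third of that group, and Pln had the largest log2 fold change of the 34 members in both genotypes (-1.88 ± 0.41, adjusted p = 0.00141 in WT and -0.99 ± 0.40, adjusted p = 0.0632 in KO). In the WT control group Pln also had the highest SD of all 18820 genes, 1.49 on the log2 scale. Kcnmb1, the β subunit of the calcium-activated potassium channel, was not called (-0.84 ± 0.26, adjusted p = 0.017 in WT), although all 6 WT heme arrays lay below all 5 WT control arrays. Casq2, a calsequestrin that binds calcium in muscle stores, was close to the minimum signal for a call, at 17.2 to 27.1 over all arrays. Myocd, myocardin, the transcriptional partner that drives this gene set, was at 53.1, 59.3 and 91.5 in WT heme arrays, against 144, 151, 59.3, 68.2 and 67.4 in WT control arrays 1 to 5. Myocd in KO mice was at 46.9, 61.2 and 77.4 in KO heme arrays and 49.8, 72.96 and 93.4 in KO control arrays. Again WT control arrays 1 and 2 were high, arrays 3 to 5 lay within the WT heme range, and Myocd was called in neither genotype (-0.49 ± 0.23, adjusted p = 0.115 in WT and -0.20 ± 0.22, adjusted p = 0.544 in KO).

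**Figure D2:**
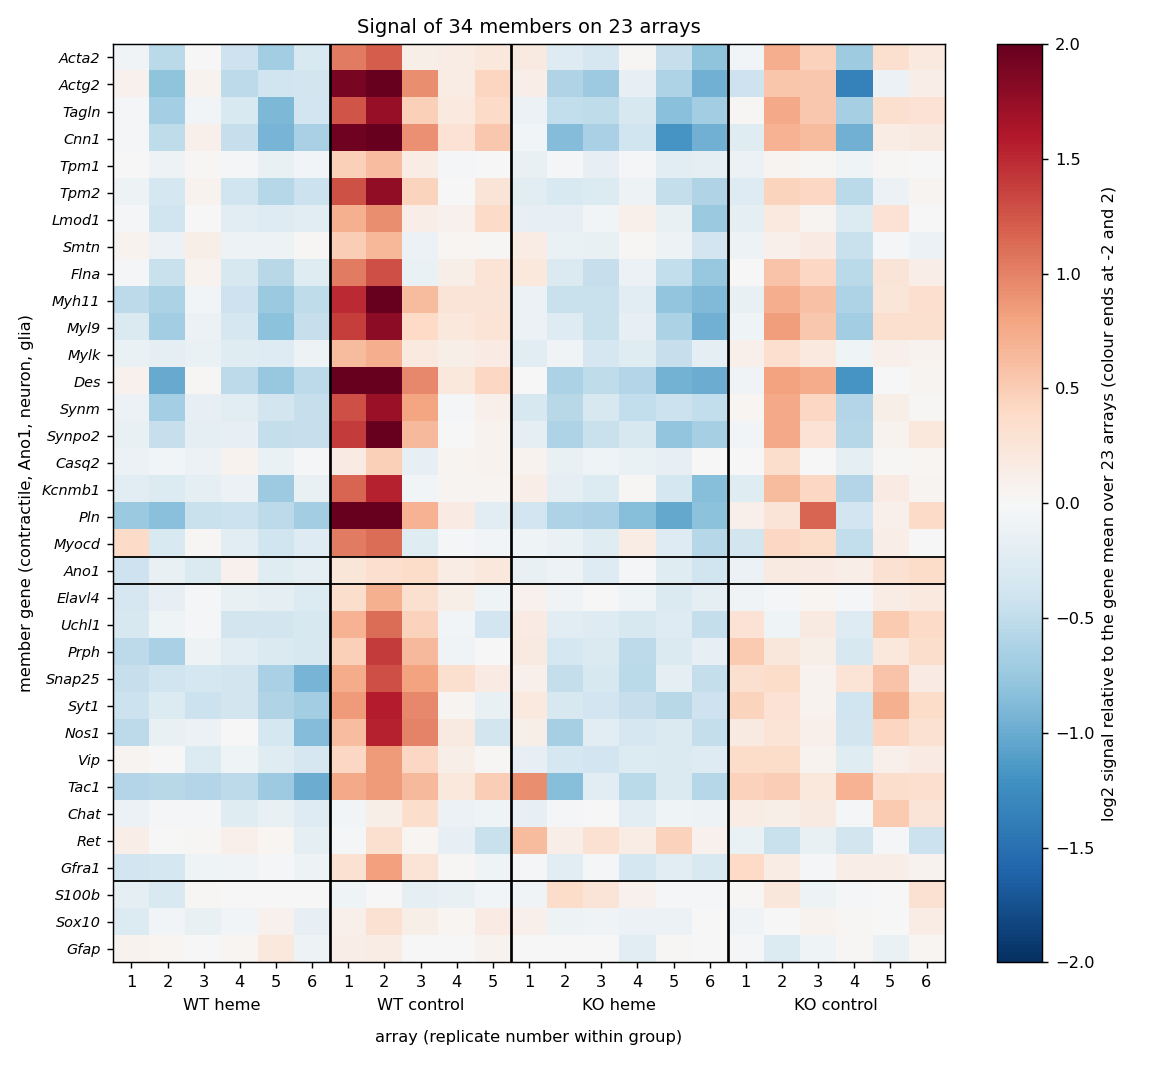
Log2 signal of the 34 measured members (rows) relative to each gene's mean over the 23 arrays (columns, replicate numbers within group), red for higher and blue for lower. WT control arrays 1 and 2 are the darkest red columns over the contractile rows, and the 3 glia rows show little colour.

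The contractile signal differed widely between single control arrays. The mean over the 19 contractile members, each taken relative to its own mean over all arrays, lay between -0.51 and -0.05 in WT heme arrays (mean -0.29 ± 0.19, SD, n = 6), against 1.24, 1.56, 0.36, 0.11 and 0.19 in WT control arrays 1 to 5. In KO mice it ran between -0.66 and -0.07 on heme (-0.37 ± 0.22) and between -0.58 and 0.53 without heme (0.08 ± 0.40, n = 6 each). The 5 WT control arrays lay above all heme arrays, and 2 of them far above the other 3, whereas KO control arrays 1 and 4 lay within the range of the KO heme arrays. In WT control arrays 1 and 2, all 19 contractile members were higher than in arrays 3 to 5, as were 5 of 14 nerve members and 2496 of the 18820 genes. The arrays were singled out by these values, so that the counts describe them and test nothing. The median SD over contractile members was 0.23 in the WT heme group, against 0.72 in the WT control group, and 0.26 in the KO heme group, against 0.44 in the KO control group. Over nerve members these medians were 0.15 in WT heme, 0.31 in WT control, 0.20 in KO heme and 0.17 in KO control arrays. Over all genes they lay between 0.11 and 0.13 in the 4 groups. There were 5 contractile members in the WT control group (Pln, Des, Cnn1, Synpo2 and Actg2) and 2 in the KO control group (Des and Actg2) among the 50 genes with the highest SD of that group.

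**Figure D3:**
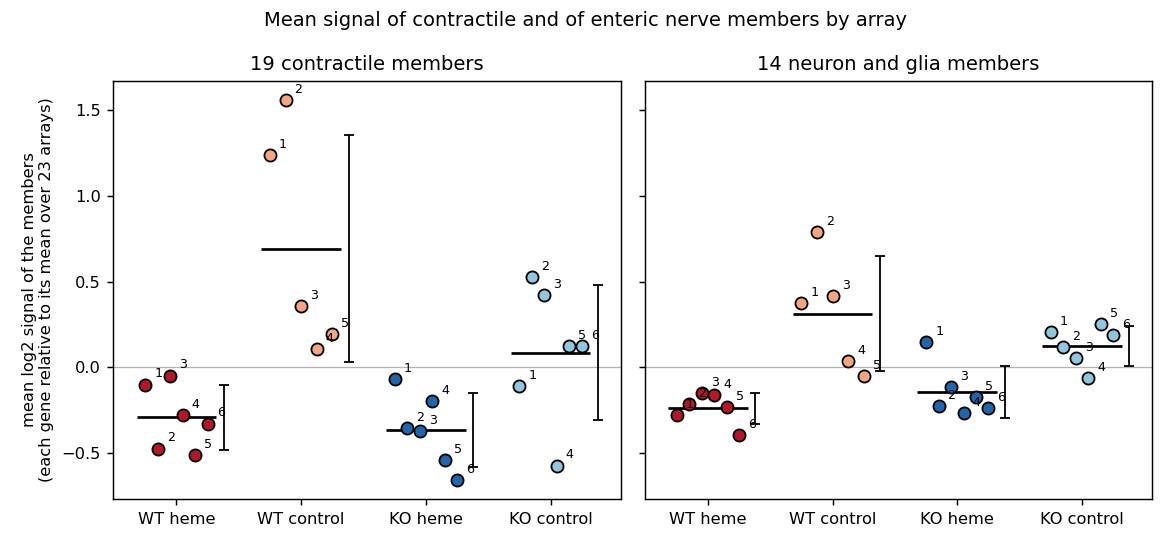
Mean log2 signal of the 19 contractile members (left) and of the 14 measured neuron and glia members (right) in each array, relative to each gene's mean over 23 arrays. Points are arrays with their replicate numbers, lines are group means and bars 1 SD; WT control arrays 1 and 2 reach 1.24 and 1.56 on the left and 0.38 and 0.79 on the right.

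When WT control arrays 1 and 2 were left out, a choice made after seeing the data, 2 of 19 contractile members were called lower in WT mice (Myh11, -0.87, adjusted p = 0.00982, and Mylk, -0.34, adjusted p = 0.00463). In this fit 4.40% of all genes were called lower in WT mice. The other 11 calls were lost, with log2 fold changes and adjusted p-values of Acta2 (-0.50, 0.153), Actg2 (-0.83, 0.0799), Cnn1 (-0.99, 0.0247), Tagln (-0.75, 0.028), Myl9 (-0.75, 0.0329) and Lmod1 (-0.39, 0.0678). They were Tpm2 (-0.53, 0.045), Des (-0.98, 0.0406), Synm (-0.62, 0.0363), Synpo2 (-0.56, 0.0552) and Pln (-0.82, 0.0143) for the other 5. All 11 values kept their negative sign. The difference of the contractile mean on heme was then -0.51 in WT mice in place of -0.98, beside -0.45 in KO mice. In KO mice the fold changes were the same by construction, but the spread shared by all groups was smaller, and 5 members were called (Myh11, Mylk, Pln, Synpo2 and Tagln) in place of 1. Of all genes 9.25% were called lower in KO mice in this fit. Without KO control array 4 as well, 6 members were called in WT and 11 in KO mice, where 4.28% and 8.36% of all genes were called lower. Leaving out KO heme array 1 kept the count in KO mice at 1. Leaving out any 1 array gave 10 to 15 calls in WT mice and 0 to 2 in KO mice.

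Ano1, the calcium-activated chloride channel by which interstitial cells of Cajal pace the muscle, fell on heme in both genotypes. It was at 988, 1137 and 1393 in WT heme arrays, against 1549, 1658, 1703, 1463 and 1527 in WT control arrays 1 to 5. Ano1 in KO mice was at 997, 1146 and 1283 in KO heme arrays and 1218, 1484 and 1695 in KO control arrays. The log2 fold change was -0.46 ± 0.08, adjusted p = 0.000264 in WT mice and -0.37 ± 0.08, adjusted p = 0.00121 in KO mice. All 6 WT heme arrays lay below all 5 WT control arrays, and the KO groups overlapped slightly. Here WT control arrays 1 and 2 did not stand out, and without them Ano1 was called at -0.45, adjusted p = 0.0043. Its deviations from the group means had a Pearson's r of 0.228 with those of the contractile mean over 23 arrays, given as a description, with arrays that share 4 group means. Ano1 is also expressed outside these pacemaker cells. Kit, the receptor tyrosine kinase that these cells need and that mast cells carry too, fell in both genotypes (-0.83 ± 0.10, adjusted p = 4.55e-06 in WT and -0.72 ± 0.10, adjusted p = 1.16e-05 in KO). Etv1, a transcription factor of the pacemaker cells, fell in WT mice (-0.51 ± 0.13, adjusted p = 0.00591) and was at -0.25 ± 0.13, adjusted p = 0.163 in KO mice. The mean Etv1 signal was 230 in WT control arrays 1 and 2, against 132 in arrays 3 to 5 and 116 in WT heme arrays. Without arrays 1 and 2, Kit was still called lower in WT mice and Etv1 was not.

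Of the 14 measured neuron and glia members, 8 fell on heme in WT mice (Snap25, Tac1, Syt1, Nos1, Prph, Vip, Gfra1 and Sox10), with a median log2 fold change of -0.49 over the 14. In KO mice 3 fell (Snap25, Tac1 and Vip) and 1 rose (Ret), with a median of -0.37. These shares stand beside the 8.29% and 9.20% of all genes called lower. When WT control arrays 1 and 2 were left out, 2 of the 8 were called in WT mice, Snap25 and Tac1 (Tac1 at -1.11, adjusted p = 0.00268), where 4.40% of all genes were. The other 6 were at Syt1 (-0.76, 0.0177), Nos1 (-0.60, 0.082), Prph (-0.55, 0.0305), Gfra1 (-0.24, 0.114), Sox10 (-0.21, 0.0353) and Vip (-0.33, 0.0459), as log2 fold changes and adjusted p-values. Mean signals reached 20 in neither group for 2 of the 14 genes in WT mice and for 3 in KO mice, so that these could not be called.

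Snap25 had the lowest adjusted p of all members in WT mice. Snap25, a SNARE protein that fuses transmitter vesicles with the membrane, was at 56.5, 79.8 and 84.4 in WT heme arrays, against 180.0, 264, 188, 134 and 120.4 in WT control arrays 1 to 5. Snap25 in KO mice was at 74.1, 81.8 and 115 in KO heme arrays and 113, 132 and 159 in KO control arrays. It fell in WT mice (-1.19 ± 0.16, adjusted p = 7.99e-06), without overlap, and in KO mice (-0.61 ± 0.15, adjusted p = 0.00365), where KO heme array 1 alone reached the control range. Without WT control arrays 1 and 2 the WT value was -0.95, adjusted p = 0.000224, and without KO heme array 1 the KO value was -0.69 (adjusted p = 0.00128). The KO call was lost without KO control array 5 or KO heme array 4 (adjusted p up to 0.0118). Syt1, synaptotagmin 1, the calcium sensor of vesicle release, was at 31.01, 37.5 and 41.8 in WT heme arrays, against 90.7, 149.5, 97.7, 52.3 and 45.7 in WT control arrays 1 to 5. Syt1 in KO mice was at 34.2, 38.3 and 57.9 in KO heme arrays and 38.2, 63.2 and 82.2 in KO control arrays. It fell in WT mice (-1.12 ± 0.23, adjusted p = 0.000697) and was not called in KO mice (-0.57 ± 0.22, adjusted p = 0.054). In Syt1 and Snap25 the high WT control arrays were 1, 2 and 3. The mean over the contractile members in array 3 was 0.36, well below the 1.24 and 1.56 of arrays 1 and 2. It was above the 0.11 and 0.19 of arrays 4 and 5.

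Of the transmitter genes, Tac1, which encodes substance P and neurokinin A, was at 80.4, 107 and 112 in WT heme arrays, against 269, 289.8, 252, 185 and 225 in WT control arrays 1 to 5. Tac1 in KO mice was at 88.4, 121 and 305 in KO heme arrays and 185, 213 and 260.2 in KO control arrays. The 305 of KO heme array 1 was the highest of all arrays, and the next KO heme array was at 137, below all KO control arrays. Tac1 fell in WT mice (-1.25 ± 0.20, adjusted p = 7.19e-05) and in KO mice (-0.68 ± 0.19, adjusted p = 0.00975), and without KO heme array 1 the KO value was -0.92 (adjusted p = 6.31e-06). The KO call with all arrays lay just inside the threshold and was lost in 21 of the 23 fits that left out 1 array, all except those without WT control array 4 and KO heme array 1, with an adjusted p of up to 0.0304 without KO heme array 2. Vip, the vasoactive intestinal peptide of inhibitory and secretomotor neurons, was at 22.8, 25.8 and 29.9 in WT heme arrays, against 38.3, 52.1, 38.4, 31.2 and 29.4 in WT control arrays 1 to 5. Vip in KO mice was at 22.1, 23.7 and 25.8 in KO heme arrays and 24.5, 31.6 and 37.5 in KO control arrays. Vip fell in WT mice (-0.51 ± 0.12, adjusted p = 0.00228) and in KO mice (-0.42 ± 0.11, adjusted p = 0.00649), with overlapping groups in both, and the KO call was lost in 9 of the 23 fits (adjusted p up to 0.0195, without KO control array 2).

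Nos1, the neuronal nitric oxide synthase of inhibitory motor neurons, was at 24.97, 38.3 and 45.9 in WT heme arrays, against 69.7, 132, 90.1, 51.3 and 35.1 in WT control arrays 1 to 5. Nos1 in KO mice was at 28.5, 36.4 and 49.00 in KO heme arrays and 35.1, 53.1 and 61.5 in KO control arrays. WT control array 5 lay inside the WT heme range and array 2 far above it, and the WT call (-0.92 ± 0.24, adjusted p = 0.00503) was lost without WT control array 1, 2 or 3 or WT heme array 1, 5 or 6 (adjusted p up to 0.0221, without WT control array 2). Chat, choline acetyltransferase, which makes the transmitter of excitatory neurons, was at 13.96, 15.2 and 16.5 in WT heme arrays, against 16.1, 18.1, 21.4, 15.4 and 15.7 in WT control arrays 1 to 5. Chat in KO mice was at 14.5, 15.7 and 16.8 in KO heme arrays and 16.3, 18.8 and 24.01 in KO control arrays. The group means of Chat did not exceed 20, and it was not called (-0.18 ± 0.09, adjusted p = 0.128 in WT and -0.30 ± 0.08, adjusted p = 0.00839 in KO).

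Elavl4 was the dimmest of the other neuron members given next. Uchl1 (PGP9.5), a ubiquitin hydrolase abundant in neurons, was at 32.3, 33.5 and 40.96 in WT heme arrays, against 67.1, 90.6, 57.4, 40.3 and 31.96 in WT control arrays 1 to 5. Uchl1 in KO mice was at 29.9, 34.8 and 46.7 in KO heme arrays and 34.7, 49.1 and 60.03 in KO control arrays. Neither change was called, and WT control arrays 4 and 5 were below the highest WT heme array (-0.61 ± 0.19, adjusted p = 0.0184 in WT and -0.40 ± 0.18, adjusted p = 0.104 in KO). Prph, peripherin, an intermediate filament of peripheral neurons, was at 20.9, 26.5 and 30.5 in WT heme arrays, against 45.9, 86.5, 51.2, 31.2 and 33.1 in WT control arrays 1 to 5. Prph in KO mice was at 22.9, 26.9 and 37.2 in KO heme arrays and 26.2, 38.2 and 47.1 in KO control arrays. It fell in WT mice without overlap (-0.85 ± 0.19, adjusted p = 0.00203) and was not called in KO mice (-0.42 ± 0.18, adjusted p = 0.0965). Elavl4 (HuD), a neuronal RNA-binding protein, was at 11.3, 12.7 and 14.12 in WT heme arrays, against 18.3, 23.5, 17.8, 15.5 and 13.4 in WT control arrays 1 to 5. Elavl4 in KO mice was at 11.7, 13.6 and 15.2 in KO heme arrays and 13.6, 14.4 and 16.3 in KO control arrays. Its adjusted p in WT mice was 0.000988, but its group means did not exceed 20.

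Ret was the only member that rose, and only in KO mice. It encodes the receptor tyrosine kinase for glial cell line-derived neurotrophic factor, which enteric neurons need to form, and it was at 76.1, 83.9 and 112 in KO heme arrays, against 52.7, 60.3 and 70.2 in KO control arrays. Ret in WT mice was at 62.8, 73.2 and 78.6 in WT heme arrays, against 70.1, 89.3, 73.9, 64.00 and 52.8 in WT control arrays 1 to 5. All 6 KO heme arrays lay above all 6 KO control arrays, with KO heme array 1 the highest, and the WT groups overlapped. The log2 fold change was 0.55 ± 0.11, adjusted p = 0.000544 in KO mice and 0.07 ± 0.12, adjusted p = 0.718 in WT mice. The difference between the genotypes, tested as the interaction, was 0.48 ± 0.16 with an unadjusted p of 0.00617 and an adjusted p of 0.583, so that a different response was not shown. Without KO heme array 1, Ret was at 0.48 (adjusted p = 0.00149) in KO mice. Gfra1, the co-receptor of Ret that binds the factor, had negative values. It was at 31.4, 38.6 and 40.1 in WT heme arrays, against 50.6, 72.5, 49.7, 41.6 and 38.7 in WT control arrays 1 to 5. Gfra1 in KO mice was at 32.3, 35.4 and 40.5 in KO heme arrays and 40.6, 45.1 and 54.3 in KO control arrays. The KO groups of Gfra1 did not overlap, but it was called only in WT mice (-0.44 ± 0.12, adjusted p = 0.00713 in WT and -0.33 ± 0.11, adjusted p = 0.0274 in KO), and the WT call was lost in 6 of the 23 fits (adjusted p up to 0.0265, without WT control array 2).

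**Figure D4:**
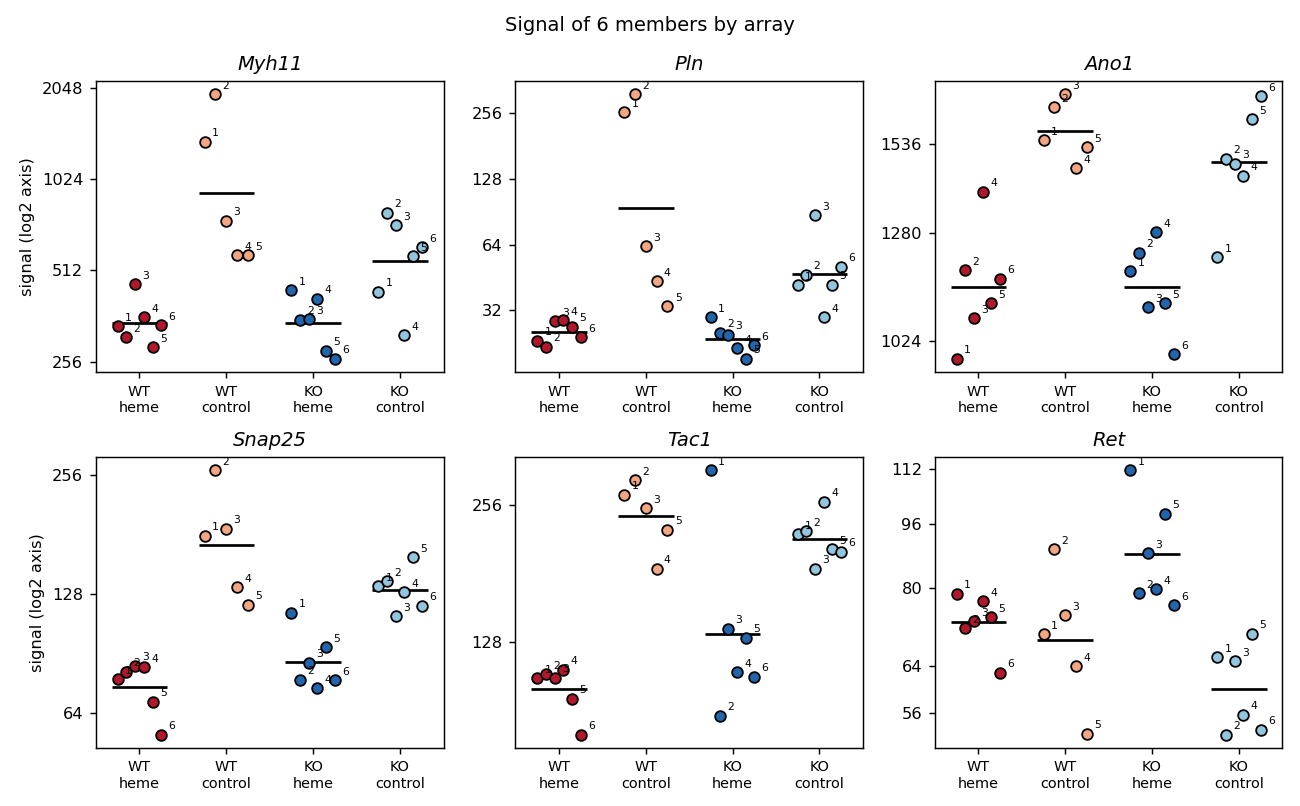
Signal of Myh11, Pln, Ano1, Snap25, Tac1 and Ret in each array (points with replicate numbers, log2 axis, lines for the mean of log2 values) by group. Myh11 and Pln are highest in WT control arrays 1 and 2, Ano1 is not, Tac1 reaches 305 in KO heme array 1, and Ret lies above all KO control arrays in the 6 KO heme arrays.

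Of the 3 glia members 1 was called, in WT mice. Sox10, the transcription factor that defines enteric glia and their precursors, was at 28.5, 32.1 and 36.5 in WT heme arrays, against 36.9, 42.7, 37.3, 35.6 and 38.8 in WT control arrays 1 to 5. Sox10 in KO mice was at 31.8, 32.5 and 36.9 in KO heme arrays and 32.8, 34.97 and 38.1 in KO control arrays. It fell in WT mice by 0.25 ± 0.06 on the log2 scale (adjusted p = 0.00328), a call lost without WT control array 2 or WT heme array 1 (adjusted p up to 0.0158), and was not called in KO mice (-0.08 ± 0.06, adjusted p = 0.323). S100b, a calcium-binding protein of glia, was at 17.3, 21.1 and 21.5 in WT heme arrays, against 20.1, 21.5, 18.8, 19.3 and 20.4 in WT control arrays 1 to 5. S100b in KO mice was at 20.2, 21.6 and 27.6 in KO heme arrays and 19.8, 21.4 and 26.3 in KO control arrays. Gfap, the glial intermediate filament, was at 18.9, 20.7 and 23.4 in WT heme arrays, against 22.2, 22.3, 20.2, 20.2 and 21.2 in WT control arrays 1 to 5. Gfap in KO mice was at 17.4, 20.3 and 20.5 in KO heme arrays and 16.7, 19.4 and 20.6 in KO control arrays. For both the groups overlapped in each genotype, and the 95% confidence interval of the log2 fold change on heme was -0.17 to 0.18 for S100b and -0.15 to 0.10 for Gfap in WT mice. These signals were close to 20, the minimum for a call.

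No member was called between KO and WT mice on the same diet. On the control diet 0 of 34 members were called in the limma fit (17 had an unadjusted p below 0.05), where 0.0372% of all genes were called lower and 0.0159% higher. The contractile members were all lower in KO control than in WT control arrays by their mean log2 values, with a median of -0.60, and Actg2 had the largest difference (-1.21 ± 0.34, unadjusted p = 0.00149, adjusted p = 0.492). Without WT control arrays 1 and 2 the contractile mean differed by -0.13 in place of -0.61 and 5 of the 19 members changed sign, and without KO control array 4 as well it differed by -0.0021 and 11 of 19 had the other sign than with all arrays. On the heme diet 0 members were called (3 with an unadjusted p below 0.05), where 0.101% of all genes were called lower and 0.133% higher, and the contractile median was -0.07 and the nerve median 0.08. The interaction, the heme response in KO minus that in WT mice, was called for 0 members (6 with an unadjusted p below 0.05) and for 2 of all genes (0.0106%). The ordinary 2-way linear model called 0 members in these 3 comparisons as well. The median interaction was 0.51 over the contractile and 0.28 over the nerve members, and the difference of the contractile means was 0.53 with all arrays and 0.06 without WT control arrays 1 and 2. Without KO control array 4 as well it was -0.07, the other direction. These arrays were left out because of their high or low contractile signal, and that choice by itself moves the differences this way. The values without them, here and between genotypes on the control diet, therefore test nothing. With all arrays no interaction was called for a member, and a different response of these genes in the 2 genotypes was not shown.

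Contractile and nerve means were correlated between single arrays, less so without WT control arrays 1 and 2. Over the deviations of the 23 arrays from their group means, the contractile and nerve means had a Pearson's r of 0.680 and a Spearman's rho of 0.483, and without WT control arrays 1 and 2 these were 0.396 and 0.362 over 21 arrays. These are descriptions, since the values share arrays and normalization. Each contractile member followed the mean of the other 18 closely, with r between 0.690 (Casq2) and 0.979 (Myh11 and Myl9) and a median of 0.941, and 17 of 19 were above 0.8. The nerve members followed the contractile mean with r between -0.104 (Gfap) and 0.711 (Uchl1) and a median of 0.524. Without WT control arrays 1 and 2 the contractile median was 0.887 and the nerve median 0.238. The contractile members were set against their own list and the nerve members against the other list, so these medians are not a like comparison. By group, 2 or 3 of the 14 nerve members had mean signals at or below 20. Over 23 arrays, the means of the other neuron, other glia, pericyte and fibroblast genes given below had r of 0.770, 0.778, 0.767 and 0.613 with the contractile mean. The nerve mean was 0.38, 0.79, 0.42, 0.04 and -0.05 in WT control arrays 1 to 5, so that array 3 was higher than array 1, with a contractile mean of 0.36 against 1.24. KO heme array 1 had a nerve mean of 0.15 and the other KO heme arrays -0.27 to -0.12, and KO control array 4, the lowest control array in contractile genes, had a nerve mean of -0.06. On heme the nerve mean differed by -0.55 in WT mice (-0.37 without WT control arrays 1 and 2) and by -0.27 in KO mice.

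**Figure D5:**
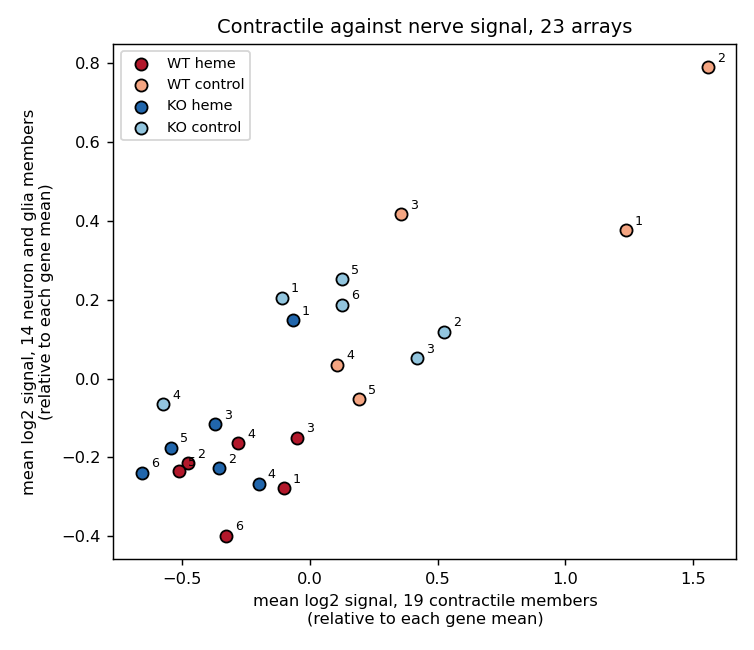
Each point is an array, with the mean log2 signal of the 19 contractile members on the horizontal axis and of the 14 neuron and glia members on the vertical axis, both relative to each gene's mean over 23 arrays, labelled with its replicate number. WT control arrays 1 and 2 lie at the far right, and WT control array 3 is as high as array 1 on the nerve axis at a contractile mean of 0.36.

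Of 36 other smooth muscle genes, 16 fell in WT mice (median -0.46 over the list) and 7 fell in KO mice (median -0.29), where 8.29% and 9.20% of all genes were called lower. Without WT control arrays 1 and 2 the limma fit called 0 of the 36 in WT mice (18 with an unadjusted p below 0.05). It called 14 in KO mice, and 4.40% and 9.25% of all genes were called lower in WT and KO mice. Without KO control array 4 as well it called 2 and 16, beside 4.28% and 8.36% of all genes. Of the called genes, the largest falls in WT mice were those of Tacr2, the neurokinin receptor of gut muscle (-1.28), Chrm2, a muscarinic receptor (-1.13), Pdlim3 (-1.06) and Cav1, caveolin 1 (-0.96). Among the genes called in KO mice they were those of Gucy1b1, a subunit of the nitric oxide receptor (-0.78), Cav1 (-0.71), Cavin1 (-0.57) and Fhl1 (-0.40). The lowest value of the list in KO mice, -0.80, belonged to a gene that was not called. Of 29 other neuron genes, 12 fell in WT mice, led by Penk, the enkephalin precursor (-1.62), Stmn2 (-1.41), Rtn1 (-1.33) and Grp, gastrin-releasing peptide (-1.24), and 2 fell in KO mice, Stmn2 (-0.90) and Rtn1 (-0.76). The fit that left out WT control arrays 1 and 2 called 4 of the 29 lower in WT mice (Penk, Rtn1, Stmn2 and Stmn3) and 4 in KO mice, where 4.40% and 9.25% of all genes were. Of 6 other glia genes 0 were called, with 3 in WT and 4 in KO mice at an unadjusted p below 0.05.

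Markers of other cells in the scrapings are given beside these results, and their part in them was not tested. Enteroendocrine cells of the epithelium also carry vesicle and peptide genes. Of 14 of their markers 4 fell in WT mice, Chga (-1.44), Tph1 (-1.14), Sst (-1.07) and Chgb (-1.03), and 6 fell and 1 rose in KO mice, led by Chga (-1.49), Chgb (-1.02), Insl5 (0.87, higher) and Tph1 (-0.77). Of all genes 8.29% were called lower in WT mice, and 9.20% lower and 9.23% higher in KO mice. The mean Sst signal was 449 in WT control arrays 1 and 2 and 173 in arrays 3 to 5. Without arrays 1 and 2, 3 markers were called lower in WT mice (Chga, Chgb and Tph1), beside 4.40% of all genes. The summed signal of the 14 markers was 4579 to 5113 in WT heme arrays, against 5457 to 6647 in WT control arrays, and 4778 to 5911 in KO heme arrays, against 5968 to 7305 in KO control arrays, with 1 of the 14 at or below 20 in each group. With all arrays, no gene of the fibroblast (10), endothelium (8), pericyte (7), mesothelium (4) or B cell (4) lists was called in either genotype, with an unadjusted p below 0.05 for 5 fibroblast, 1 pericyte and 0 other genes in WT mice, and for 5 fibroblast, 2 endothelium, 1 pericyte and 1 mesothelium gene in KO mice. Without WT control arrays 1 and 2, the fibroblast gene Dpt was called lower in KO mice, beside 9.25% of all genes. The fibroblast median was then -0.34 in KO mice, and 0.09 in WT mice, where no fibroblast gene was called. Without KO control array 4 as well, the pericyte gene Rgs5 was also called lower in KO mice, beside 8.36% of all genes, and the fibroblast median there was -0.41. The summed fibroblast signal was 3921 to 5196 (median 4999) in WT heme arrays and 2694 to 9086 (median 7299) in WT control arrays. In KO mice it was 3719.8 to 6254 (median 5193) in KO heme arrays and 5546 to 8569 (median 7459) in KO control arrays. The 2694 was that of WT control array 3, and the other WT control arrays were at 7277 to 9086, above all WT heme arrays. The summed pericyte signal was 732 to 1002 in WT heme arrays and 575 to 1642 in WT control arrays, and 679 to 997 in KO heme arrays and 698 to 1134 in KO control arrays, and its highest value was that of WT control array 2. Of 10 skeletal muscle genes 6 were at or below 20 in each group, Ckm fell in WT mice (-0.78) and Tnni2 rose in KO mice (0.78). Without WT control arrays 1 and 2, no skeletal muscle gene was called lower in WT mice. Of 12 epithelial markers 2 rose (Vil1 and Cdh17) and 2 fell (Epcam and Cdh1) in WT mice, and 3 rose, with Krt19 as the third, and the same 2 fell in KO mice, with log2 fold changes between -0.24 and 0.32. Of 5 adipocyte genes Cidec, which enterocytes also use for lipid storage, rose by 1.21 in WT mice and by 1.28 in KO mice on the log2 scale.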

How the data were processed

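RNA from colon scrapings of 23 mice was hybridised by the authors to Affymetrix Mouse Gene 1.1 ST arrays, 1 mouse per array. Deposited were log2 values, which the authors made by robust multi-array average over all arrays together, which assumes like distributions of signal in every array, and their scale is relative. The methods name reorganised probe sets, whereas the identifiers in the file are the manufacturer's. Of 35556 probe sets 21218 carry 1 gene symbol in the platform annotation, 1881 carry several and 12457 carry none. The probe set with the highest mean stood for each of 18820 genes, and probe sets of several genes were not used, which leaves out Tubb3.

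The 4 groups were fitted in 1 model with limma 3.58.1 in R 4.3.3, with Benjamini-Hochberg adjustment over 18820 genes. Adjusted p-values are from this limma fit unless stated otherwise. A gene was called at an adjusted p below 0.01 with a mean signal (2 to the power of the log2 value) above 20 in at least 1 group compared, the thresholds of the study's methods. Values after ± are standard errors of the fit unless marked SD. Replicates are separate mice. Array number limits the precision, and arrays have no read depth.

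The members and lists were chosen with earlier results of these data known. Full values are given for 20 members named by role and for every other called member, and up to 4 called genes with the largest change are named from each further list. The fit was tested on simulated data with independent genes and a like spread in every group. The unequal spread and the joint movement of the members were not simulated. Alternatives were array centring, other thresholds, array weights, an intensity trend, ordinary 2-way models, other uses of probe sets, a replicate block, the other list's signal as a covariate, and leaving out arrays. Python 3.11.15 was used for descriptions and figures.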

Additional observations from a re-analysis of the deposited data

Results flagged for a closer look

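In groups of 5 or 6 arrays, Dixon's criterion at the 95% level was applied to each member and to the contractile and nerve means, and 6 of 144 groups had an array beyond it, where chance gives about 1 in 20. The criterion compares an extreme array with the next one. WT control arrays 1 and 2, with contractile means of 1.24 and 1.56, therefore hide each other and were not flagged. Tac1 was at 305 in KO heme array 1 and at 137 in the next of that group. In the same array Syt1 was at 57.93, with the next at 40.24, and the nerve mean was 0.148. The Lmod1 signal of KO heme array 6 was 36.8, below the 55.04 of the next lowest. Kcnmb1 was at 51.27 in WT heme array 5, where the next lowest array had 69.95. Gfap was at 17.36 in KO heme array 4, below the 20.16 of the next, at signals close to the minimum for a call. KO heme array 1 also had the lowest Hmox1 signal of its group, and a summed signal of 4 B cell markers of 1842 against 299 to 737 in the other KO heme arrays, and the results with and without it stand beside Tac1, Snap25 and Ret. The part of that array in these values was not tested.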

How the results depend on the processing

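The count of contractile members lower on heme in WT mice, 13, was 2 without WT control arrays 1 and 2, 6 without KO control array 4 as well, and 0 with the mean signal of the nerve list as a covariate. In KO mice the count of 1 was 5 and 11 without those arrays, 2 at an adjusted p under 0.05 and with only the groups compared, and 0 with arrays centred on their median, in the ordinary 2-way model on linear signal and with the covariate. The 8 nerve members lower in WT mice were 2 and 3 without those arrays, 5 at a minimum signal of 50 and in the linear-signal model, 3 with only the groups compared and 1 with the contractile mean as a covariate. The 3 in KO mice were 6 without WT control arrays 1 and 2 and KO control array 4, 1 with centring, with the ordinary log2 model and with all probe sets tested, and 0 in the linear-signal model and with the covariate. The contractile and nerve means themselves differed on heme, by -0.98 and -0.55 in WT mice and by -0.45 and -0.27 in KO mice. Either mean as a covariate therefore takes up part of the diet difference, and no conclusion is drawn from the counts with it. Leaving out 2 or 3 arrays was chosen after seeing their contractile signal, and that choice by itself moves the counts and differences. The other causes were not tested. Leaving out 1 array gave 10 to 15 contractile calls in WT and 0 to 2 in KO mice, and 5 to 9 nerve calls in WT and 0 to 3 in KO mice. The contractile mean on heme in WT mice was -0.51 without WT control arrays 1 and 2, the KO minus WT difference on the control diet -0.13 and the interaction 0.06. Over members with signal above 50 alone, the nerve mean on heme in WT mice was -0.87 and the interaction 0.55. Without KO control array 4 as well, the contractile KO minus WT difference on the control diet was -0.0021, and the interaction turned its direction, to -0.072. The nerve mean then differed by 0.030 on the control diet and by 0.065 in the interaction. No contractile or nerve member called in a comparison changed sign there in any alternative. Members that were not called did: without WT control arrays 1 and 2, 5 of 19 contractile and 2 of 14 nerve members changed sign between KO and WT mice on the control diet, and 9 and 4 in the interaction; without KO control array 4 as well these were 11 and 5, and 13 and 4.

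The replicate numbers were not treated as pairs: of 33 same-numbered pairs 13 correlated above 0.1, and all lay between -0.31 and 0.34. Pairs with different numbers were not compared, so that a factor shared by same-numbered arrays was not tested. With the replicate block the counts were 13 contractile members in WT and 1 in KO mice, and 6 nerve members in WT and 3 in KO mice. Elavl4 in WT and Chat in KO mice passed the adjusted p but not the minimum signal.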
